A study of Mus musculus with 8 samples.

Results

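Tnfaip2, Tnfaip1 and Tnfaip8 are named for induction by tumour necrosis factor (TNF). Tnfaip8l1, Tnfaip8l2 and Tnfaip8l3 are named for their likeness to Tnfaip8, and the 4 genes form the Tnfaip8 family. All these genes were followed in sorted Paneth cells, which secrete antimicrobial peptides from the crypts of the small intestine. They make 6 of the 55414 gene identifiers in the count table. Tnfaip2 was chosen by its measured fall in these libraries, so its difference between groups is described with no test. The other 5 genes were listed by name and family. The libraries came from wild-type (WT) mice that received PBS (n = 4) or TNF (n = 4) by injection, and the small intestine was taken 3 hours later. The strain was C57BL/6J according to the methods. Paneth cells were purified on a cell sorter and libraries were made from mRNA. The TNF dose, its route and the age of the mice were not found in the labels or methods. The study describes its Paneth cell samples as coming from individual mice, while the labels of this series call the libraries biological replicates without naming the animals.

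TNF acts through its receptors on NF-kB, a family of transcription factors that switch on inflammatory and survival genes. TNFAIP2, also called M-Sec, is a relative of the exocyst subunit Sec6 and is known for its part in membrane protrusions called tunnelling nanotubes. Its gene was named for induction by TNF in endothelial cells, responds to retinoic acid elsewhere and is known in the M cells of the gut epithelium. TNFAIP1 is a BTB-domain adaptor of the Cullin-3 ubiquitin ligase that acts on RhoA. The TNFAIP8 (TIPE) proteins share a fold with a deep lipid-binding cavity and carry phosphoinositides, the membrane lipids read by AKT and small GTPases. TNFAIP8L2 (TIPE2) is known from immune cells, where it restrains inflammatory signalling.

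The promoters were searched for NF-kB sites because the members differed in direction. The window ran from 250 bases before to 50 bases after the start of the Ensembl canonical transcript in GENCODE (build GRCm39), and both strands were read. The 10-base NF-kB consensus occurred in 8.97% of the 21757 protein-coding promoters searched this way. A looser pattern, GGGNNNNNCC, which every consensus match also fits, occurred in 54.6% of them. The 250 bases upstream of 3 starts are shown 5′ to 3′ on the strand of the gene: Tnfaip2, which was lower after TNF, Tnfaip8l1, which was higher, and Tnfaip3, which encodes the NF-kB inhibitor A20 and served as a TNF-induced reference. Capitals mark the consensus match in Tnfaip8l1 and Tnfaip3. In Tnfaip2, capitals mark matches to the looser pattern, since no consensus match was found there.
Tnfaip2, chr12:111408608-111408857, plus strand: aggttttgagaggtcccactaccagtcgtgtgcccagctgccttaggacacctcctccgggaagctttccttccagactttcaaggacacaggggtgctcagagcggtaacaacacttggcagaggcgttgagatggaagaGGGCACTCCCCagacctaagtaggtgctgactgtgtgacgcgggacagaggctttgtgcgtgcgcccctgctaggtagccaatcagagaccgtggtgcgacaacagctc
Tnfaip8l1, chr17:56469227-56469476, plus strand: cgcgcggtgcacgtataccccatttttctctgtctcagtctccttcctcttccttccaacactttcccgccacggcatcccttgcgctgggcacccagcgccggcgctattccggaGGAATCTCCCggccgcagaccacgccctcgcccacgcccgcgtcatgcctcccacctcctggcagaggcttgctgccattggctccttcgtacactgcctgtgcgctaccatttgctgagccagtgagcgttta
Tnfaip3, chr10:18891187-18891436, minus strand: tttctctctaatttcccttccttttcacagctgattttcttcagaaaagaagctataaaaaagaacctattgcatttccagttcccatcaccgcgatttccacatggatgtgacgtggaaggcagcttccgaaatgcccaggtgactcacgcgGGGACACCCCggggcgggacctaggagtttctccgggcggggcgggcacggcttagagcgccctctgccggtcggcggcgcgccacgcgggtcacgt

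The consensus match of Tnfaip8l1 lay on the reverse strand from base -134 to base -125, counted from the transcript start. Tnfaip3 had one at -97 to -88, which matched on both strands, and another at 16 to 25. In the Tnfaip2 window the looser pattern matched between -109 and -99 only. The result for Tnfaip2 depended on which start was used. RefSeq places the start of Tnfaip2 237 bases further downstream, at base 111409095 of chromosome 12 when its 300-base window (listed for build GRCm38.p6) is matched letter for letter to GRCm39. The consensus did match ahead of that start, on the reverse strand from -24 to -15, which is within the first exon of the canonical transcript. These 30 bases hold it, in capitals.
Tnfaip2, chr12:111409061-111409090, plus strand: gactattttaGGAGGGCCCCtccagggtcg

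Among all 32851 RefSeq windows, 8.46% held the consensus. The Tnfaip8l1 window from RefSeq held it as well. No RefSeq window was available for Tnfaip8. In the Ensembl windows Tnfaip1 had no match to either pattern, and Tnfaip8, Tnfaip8l2 and Tnfaip8l3 matched the looser pattern only. None of the 6 members matched the AP-1 pattern TGANTCA, present in 7.15% of promoters, or the interferon-response pattern GAAANNGAAA, present in 3.84%. A match describes letters in a window and not a bound site.

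Each library held between 23824717 and 32576077 counts. TNF replicate 4 stood apart: its TMM scaling factor was 0.448, against 0.995 to 1.36 in the other 7 libraries, and the second principal component, with 15.1% of the variance, set it at -62.6 against -3.95 to 27.8. Over all genes, 5746 of 13368 tested were called at an adjusted p under 0.05 (43.0%) in the quasi-likelihood test of edgeR after Benjamini-Hochberg correction. Of all tested genes, 3121 were higher (23.3%) and 2625 lower (19.6%) after TNF, with a median log2 fold change of 0.03. Scaling by library size alone shifted that median by -0.40 and gave 757 higher and 2425 lower. Values below are CPM after TMM scaling (normalised CPM) unless stated. In bulk RNA, fewer expressing cells and less RNA per cell cannot be told apart.

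Tnfaip2 (ENSMUSG00000021281, chr12:111408858-111421452) stood at 3.70, 4.46, 3.75 and 5.39 normalised CPM in PBS replicates 1 to 4. It stood at 0.604, 1.04, 0.737 and 0.430 in TNF replicates 1 to 4. Every TNF library lay below every PBS library, and the highest TNF value was well under the lowest PBS value. Group means were 4.32 ± 0.791 in PBS and 0.702 ± 0.257 in TNF (SD, n = 4 each). The fitted log2 fold change was -2.56 (SE 0.26), or 5.89-fold lower. Because the gene was picked on this fall, the value is a description. In the same fit 107 genes, 0.800% of those tested, fell by as much or more, Tnfaip2 included.

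Tnfaip2 was not an abundant transcript. It was read 95 to 238 times per PBS library and 5 to 30 times per TNF library. The smallest count, 5 in TNF replicate 4, is 0.192 CPM before scaling, with a 95% exact binomial interval of 0.0625 to 0.449 that covers counting error only. Without TNF replicate 4 the log2 fold change of Tnfaip2 was -2.43, and with library size alone it was -2.93. Cut into overlapping 75-base stretches, its canonical transcript was 97.2% free of other annotated genes, and the rest was shared with the antisense lncRNA Gm56529, which is not in the count table.

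**Figure D1:**
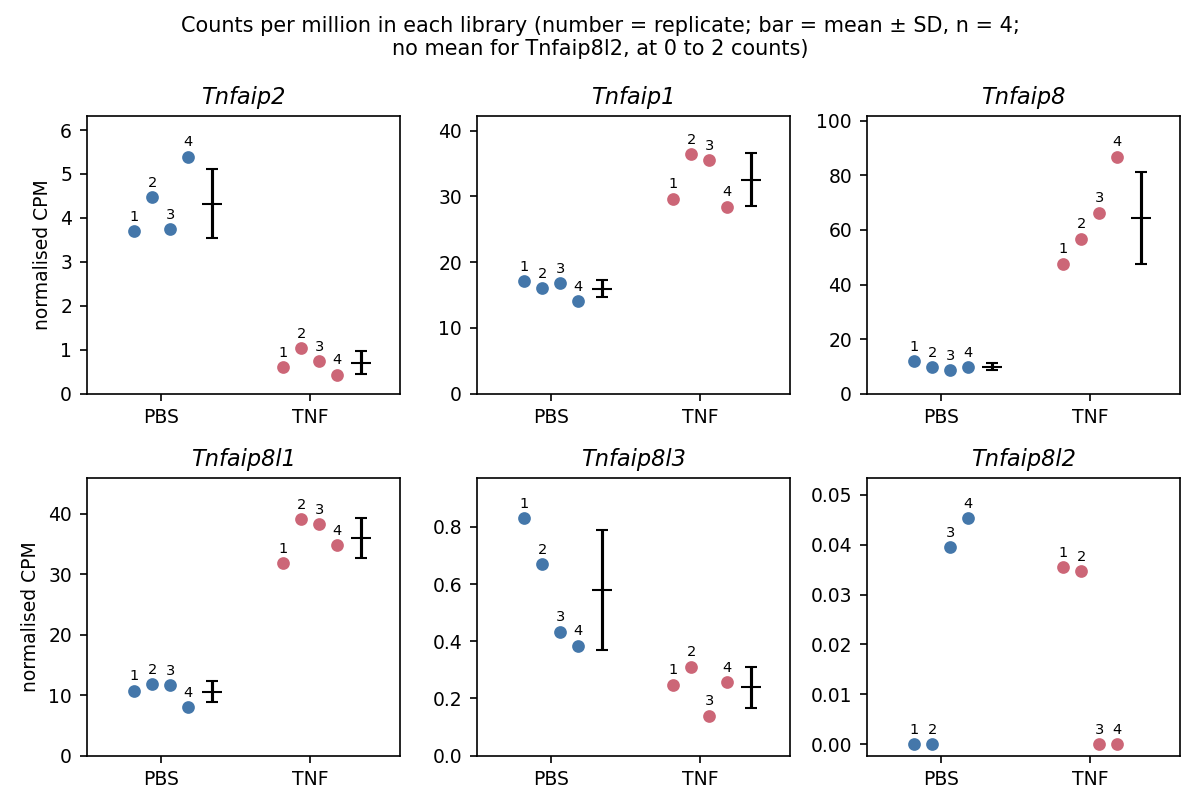
Normalised CPM (vertical axis, linear, from 0, with a separate scale in each panel) of the 6 genes in the 4 PBS and 4 TNF libraries. Each point is a library with its replicate number, and the bar beside each group is the mean ± SD (n = 4), left out for Tnfaip8l2. The groups do not overlap for Tnfaip2, Tnfaip1, Tnfaip8, Tnfaip8l1 or Tnfaip8l3, while Tnfaip8l2 sits at 0 to 2 raw counts everywhere.

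Tnfaip8 (ENSMUSG00000062210, chr18:50112494-50240240), the founder of its family and known as an inhibitor of cell death, had the largest rise of the members. It stood at 11.8, 9.67, 8.56 and 9.58 normalised CPM in PBS replicates 1 to 4. In TNF replicates 1 to 4 it stood at 47.7, 56.8, 66.4 and 86.9. The lowest TNF library was above the highest PBS library by a wide margin, and the TNF libraries differed more among themselves than the PBS libraries did. Means were 9.90 ± 1.36 and 64.4 ± 16.8 (SD, n = 4 each). The log2 fold change was 2.70 (SE 0.19), or 6.48-fold higher, with an adjusted p of 2.30e-06 in edgeR. Of all tested genes 1.85% rose by as much or more. The highest normalised value was that of TNF replicate 4. Before TMM scaling that library was the lowest of the TNF group, at 38.9 CPM against 52.7 to 70.5. Without that library the log2 fold change of Tnfaip8 was 2.53, and it was 2.21 with library size alone.

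Tnfaip8l1 (ENSMUSG00000044469, chr17:56469477-56484817), which encodes TIPE1, rose too. It stood at 10.7, 11.8, 11.7 and 8.01 normalised CPM in PBS replicates 1 to 4 and at 31.8, 39.1, 38.3 and 34.8 in TNF replicates 1 to 4. The libraries within each group lay close together and the groups did not overlap. Means were 10.6 ± 1.76 and 36.0 ± 3.37 (SD, n = 4 each). The log2 fold change was 1.77 (SE 0.14), or 3.42-fold higher, with an adjusted p of 6.03e-06 in edgeR. It was 1.41 with library size alone, still called at an adjusted p of 0.00558 in edgeR.

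Tnfaip8l3 (ENSMUSG00000074345, chr9:53929992-53975853), which encodes the phosphoinositide transfer protein TIPE3, was low, and lower in the TNF libraries. It stood at 0.831, 0.670, 0.434 and 0.385 normalised CPM in PBS replicates 1 to 4. In TNF replicates 1 to 4 it stood at 0.249, 0.312, 0.140 and 0.258. The groups did not overlap, but the lowest PBS library was close to the highest TNF library. These values rest on 11 to 31 counts per PBS library and 3 to 9 per TNF library, and the gene passed the filter on low counts through its PBS libraries only. Means were 0.580 ± 0.209 and 0.240 ± 0.0717 (SD, n = 4 each). The log2 fold change was -1.27 (SE 0.40), with an adjusted p of 0.0256 in edgeR, a call that carries the limit of that filter. It was lost when PBS replicate 1, PBS replicate 2, TNF replicate 1 or TNF replicate 3 was left out, with adjusted p in edgeR of 0.0901, 0.0625, 0.0576 and 0.0815.

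Tnfaip8l2 (ENSMUSG00000013707, chr3:95044882-95049685) was hardly read at all. Its raw counts were 0, 0, 1 and 2 in PBS replicates 1 to 4 and 1, 1, 0 and 0 in TNF replicates 1 to 4. All 8 values lie under the 3 counts that a count of 0 allows, so no fold change is given and no difference was detectable at this depth. Of its exonic bases 43.5% overlap Lysmd1 on the opposite strand, whose log2 fold change was 0.04 and not called. Defining leukocyte markers were at 0 beside it, though others were read. The lymphocyte markers Cd3e, Cd3g, Cd4, Cd8a and Cd79a had no count in any library, and of 8 macrophage and monocyte markers Adgre1, Fcgr1 and C1qb had none. Ptprc, Itgam and Cd68 had 39, 69 and 37 counts over all libraries. C1qa had 25, and stood at 2.06 normalised CPM in TNF replicate 4 and at 0.0268 or less elsewhere. Csf1r stood at 2.10 and 2.99 normalised CPM in PBS and TNF and was called higher only without PBS replicate 4 or TNF replicate 4, at adjusted p of 0.0228 and 0.0431 in edgeR. Lyz2 stood at 9.15 in PBS and at 9.44, 12.2, 10.2 and 64.4 in TNF replicates 1 to 4, and was called with no filter or without TNF replicate 1 or 3, at adjusted p of 0.00690, 0.0371 and 0.0470 in edgeR. Cd52 was called higher at 0.470 and 1.61, with an adjusted p of 0.0118 in edgeR.

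Tnfaip1 (ENSMUSG00000017615, chr11:78413676-78427162), which is no relative of the others in sequence, rose. It stood at 17.1, 16.0, 16.8 and 14.1 normalised CPM in PBS replicates 1 to 4 and at 29.6, 36.4, 35.5 and 28.4 in TNF replicates 1 to 4. The groups did not overlap. Means were 16.0 ± 1.36 and 32.5 ± 4.03 (SD, n = 4 each). The log2 fold change was 1.03 (SE 0.12), or 2.04-fold higher, with an adjusted p of 7.81e-05 in edgeR. The call depended on the scaling: with library size alone the log2 fold change of Tnfaip1 was 0.67 with an adjusted p of 0.155 in edgeR, and TNF replicate 4, at 12.7 CPM before TMM scaling, fell below the PBS range of 16.8 to 21.4. Set against the median of all tested genes, the difference was 1.00 under TMM and 1.05 under library size. Subtracting that median is itself a scaling, so the likeness of these values is no test of the call.

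The exons of Tnfaip1 overlap those of Poldip2 (20.7% of the exonic bases of Tnfaip1) and Ift20 (3.92%) on the opposite strand, and by the same 75-base measure its canonical transcript was 59.6% free of other genes. Whether reads were counted by strand was not stated, so reads from these overlapping genes may be divided differently by another counting. Poldip2, a partner of a DNA polymerase subunit, moved the other way, with a log2 fold change of -0.37 and an adjusted p of 0.0230 in edgeR. Ift20, an intraflagellar transport subunit, had a log2 fold change of 0.62 with an adjusted p of 0.217 in edgeR. Their part in the Tnfaip1 value was not tested. Among the Tnfaip8 family, the canonical transcripts of Tnfaip8, Tnfaip8l2 and Tnfaip8l3 shared no 75-base stretch with any other gene. No canonical transcript of the family shared one with another member. Over all annotated exons, 12.7% of the bases of Tnfaip8 overlap the lncRNA C030005K06Rik on the opposite strand, which had 0 to 4 counts per library.

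Counted over all 6 genes, the PBS and TNF libraries did not overlap for 5, a state found in 42.1% of all tested genes. Tnfaip2 was chosen for that separation and Tnfaip8l3 passed the filter only where it was high, so the count of 5 is given with no weight. Of the other 3 tested genes, Tnfaip1, Tnfaip8 and Tnfaip8l1, each was called higher, against a background of 23.3% of tested genes.

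**Figure D2:**
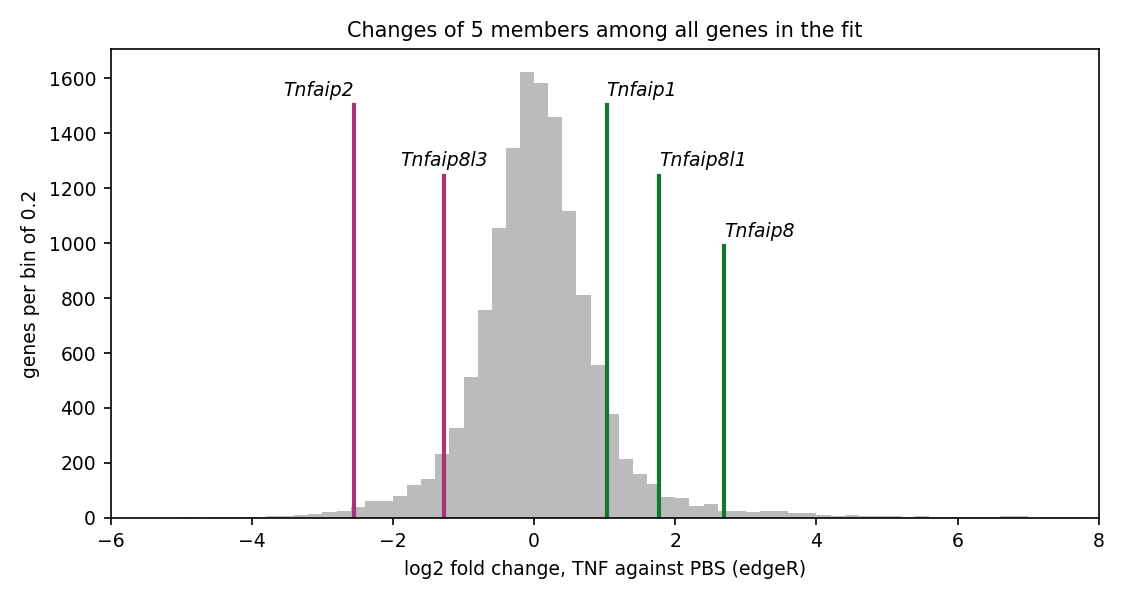
Log2 fold changes of TNF against PBS for all 13368 genes in the edgeR fit (horizontal axis, grey bars, genes per bin of 0.2 on the vertical axis), with vertical lines at 5 members. Tnfaip2 (-2.56) and Tnfaip8l3 (-1.27) lie in the lower tail, and Tnfaip1 (1.03), Tnfaip8l1 (1.77) and Tnfaip8 (2.70) in the upper tail. Line height carries no value and Tnfaip8l2 was too low to enter the fit.

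Divided by the length of the canonical transcript, the order of levels in PBS was Tnfaip8 (9.88 ± 1.36 normalised CPM per kb), Tnfaip1 (4.24 ± 0.360), Tnfaip8l1 (4.23 ± 0.705), Tnfaip2 (1.14 ± 0.208), Tnfaip8l3 (0.110 ± 0.0395) and Tnfaip8l2 (0.0184 ± 0.0213). Tnfaip1 and Tnfaip8l1 did not differ beyond their spread, with ranges of 3.73 to 4.53 and 3.21 to 4.73, and the ranges of the next genes down to Tnfaip8l3 did not overlap. The range of Tnfaip8l2 (0 to 0.0393) lay below that of Tnfaip8l3 (0.0729 to 0.157), on 0 to 2 counts per library. In TNF the levels were 64.3 ± 16.8 normalised CPM per kb for Tnfaip8, 14.4 ± 1.35 for Tnfaip8l1, 8.62 ± 1.07 for Tnfaip1, 0.184 ± 0.0676 for Tnfaip2 and 0.0454 ± 0.0136 for Tnfaip8l3. Tnfaip8l1 stood above Tnfaip1 there, with no overlap of their ranges (12.7 to 15.7 and 7.55 to 9.67). Tnfaip2 sat at percentile 43.8 of 15484 detected protein-coding genes in PBS and at percentile 27.6 in TNF by this measure. Tnfaip8 went from percentile 85.2 to 97.6.

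The first place of Tnfaip8 in PBS depended on the transcript length. Its canonical transcript has 1002 bases and its longest annotated one 5085. With the longest transcript of each gene the PBS order became Tnfaip1 (3.90 normalised CPM per kb), Tnfaip8l1 (2.63) and Tnfaip8 (1.95), followed by Tnfaip2, Tnfaip8l3 and Tnfaip8l2 as before, and the ranges of Tnfaip8l1 (2.00 to 2.94) and Tnfaip8 (1.68 to 2.32) overlapped. In TNF Tnfaip8 came first with either length, at 12.7 normalised CPM per kb with the longest, but its range with that length (9.38 to 17.1) overlapped that of Tnfaip8l1 (7.93 to 9.76).

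Within the Tnfaip8 family, Tnfaip8 held a larger share after TNF. Its share of the summed family level per kb was 69.3% ± 4.82 in PBS and 81.1% ± 3.58 in TNF (SD, n = 4 each, canonical lengths), with no overlap between the PBS range of 64.0% to 74.2% and the TNF range of 78.2% to 86.1%. The share of Tnfaip8l1 went from 29.8% ± 4.84 to 18.9% ± 3.55, and Tnfaip8l3 held 0.756% in PBS and 0.0601% in TNF. The ratio of raw counts of Tnfaip8 to Tnfaip8l1 needs neither a length nor a scaling factor. It was 1.10, 0.820, 0.733 and 1.19 in PBS replicates 1 to 4 and 1.50, 1.45, 1.73 and 2.50 in TNF replicates 1 to 4, so each TNF library lay above each PBS library. The summed family level was 14.2 ± 1.50 normalised CPM per kb in PBS and 78.8 ± 17.0 in TNF. With the longest transcripts the share of Tnfaip8 was 41.6% in PBS and 57.8% in TNF. These shares are descriptions with no test of their own.

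**Figure D3:**
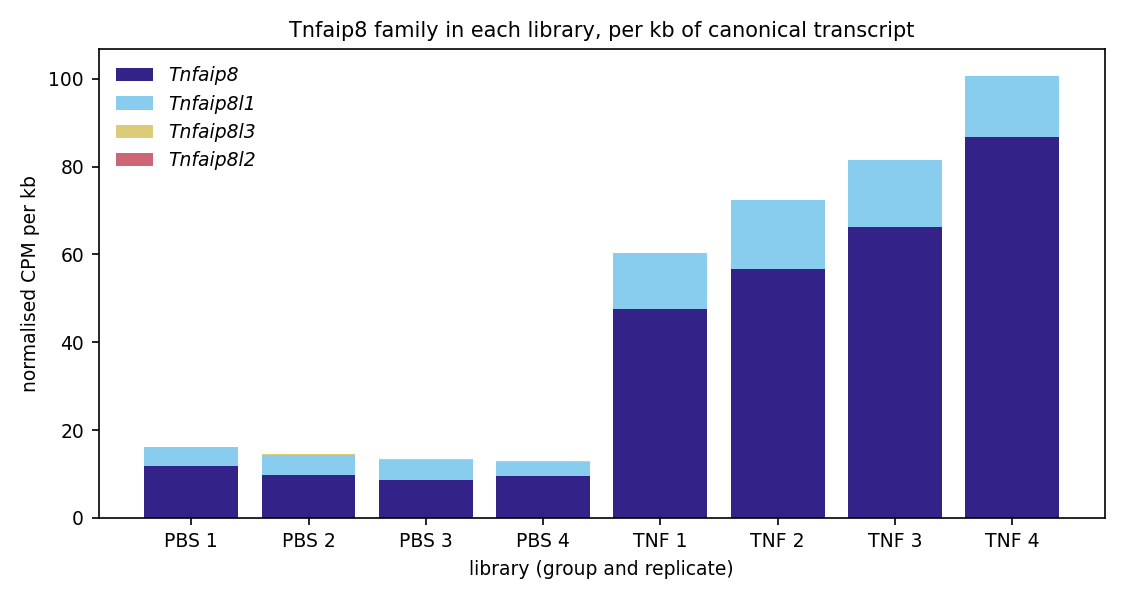
Summed level of the Tnfaip8 family in each of the 8 libraries (vertical axis, normalised CPM per kb of canonical transcript, from 0), stacked by gene. PBS libraries reach 12.9 to 16.2 and TNF libraries 60.4 to 100.7, and nearly all of each bar is Tnfaip8 and Tnfaip8l1.

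The lower Tnfaip2 stood among many higher TNF-induced genes. Of 25 genes known to be induced by TNF, 19 were tested and 17 were higher, none lower, where 23.3% of all tested genes were higher. Several of them, such as Cxcl1 with no count in PBS, passed the filter on low counts through their TNF libraries only. The list had a median log2 fold change of 3.49 against 0.03 over all tested genes. Of the other genes named TNF alpha induced protein, Tnfaip3 went from 3.48 ± 1.03 to 54.7 ± 3.83 normalised CPM (SD, n = 4 each), a log2 fold change of 3.96 (SE 0.19) with an adjusted p of 2.72e-07 in edgeR. Tnfaip6, a hyaluronan-binding secreted protein, had no count in any library. The smallest p-values in that list were those of the adhesion molecule Icam1 (log2 fold change 6.92), the NF-kB subunit Relb (3.08) and the NF-kB inhibitor Nfkbia (3.86). In PBS the means of Tnfaip2 and Tnfaip3 were 4.32 and 3.48 normalised CPM, and in TNF they were 0.702 and 54.7.

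Tnfaip2 has a Sec6 relative as its upstream neighbour. Exoc3l4 (chr12:111383451-111398112) ends 10745 bases before Tnfaip2 on the same strand. It stood at 1.58, 1.90, 1.97 and 1.68 normalised CPM in PBS replicates 1 to 4 and at 2.63, 4.78, 2.81 and 7.56 in TNF replicates 1 to 4. The TNF libraries were spread widely, and all were above PBS. The log2 fold change of Exoc3l4 was 1.28 (SE 0.32) with an adjusted p of 0.00811 in edgeR, and 0.75 with an adjusted p of 0.0701 by library size alone. The lncRNA Gm10425 lies within the Exoc3l4 gene on the opposite strand and had a log2 fold change of 1.29, so without stated strand counting the reads of the pair cannot be told apart. The downstream neighbour, Gm266, starts 29590 bases beyond Tnfaip2 and had no count.

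Among the exocyst, the complex that tethers secretory vesicles to the plasma membrane, the share of called genes was close to that of the whole table. Of 15 names (subunits, Sec6 relatives and the Ral GTPases) 14 matched the table and 13 were tested, of which 3 were higher, 2 lower and 8 not called, against 43.0% called over all genes. Their median log2 fold change was -0.07. The Sec6 relative Exoc3l, which passed the filter on low counts through its PBS libraries only, went from 0.952 ± 0.140 to 0.171 ± 0.0839 normalised CPM (SD, n = 4 each), a log2 fold change of -2.34 (SE 0.35) with an adjusted p of 0.000370 in edgeR. The structural subunit Exoc5 (log2 fold change 0.96) and Ralb (0.51) rose beside Exoc3l4. Exoc7, a membrane-binding subunit, was called lower at -0.35, with an adjusted p of 0.0241 in edgeR. Leaving out PBS replicate 1, PBS replicate 3, TNF replicate 1 or TNF replicate 2 ended that call, at adjusted p in edgeR of 0.0799, 0.0533, 0.0756 and 0.0664, as did dropping the filter on low counts (0.0736). Exoc3, which encodes Sec6 itself, had a log2 fold change of 0.26 with an adjusted p of 0.125 in edgeR, and was called at 0.33 (adjusted p of 0.0417 in edgeR) without TNF replicate 4. Exoc3l2 had 1 count in all. By library size alone Exoc3l was the one gene of the list still called.

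**Figure D4:**
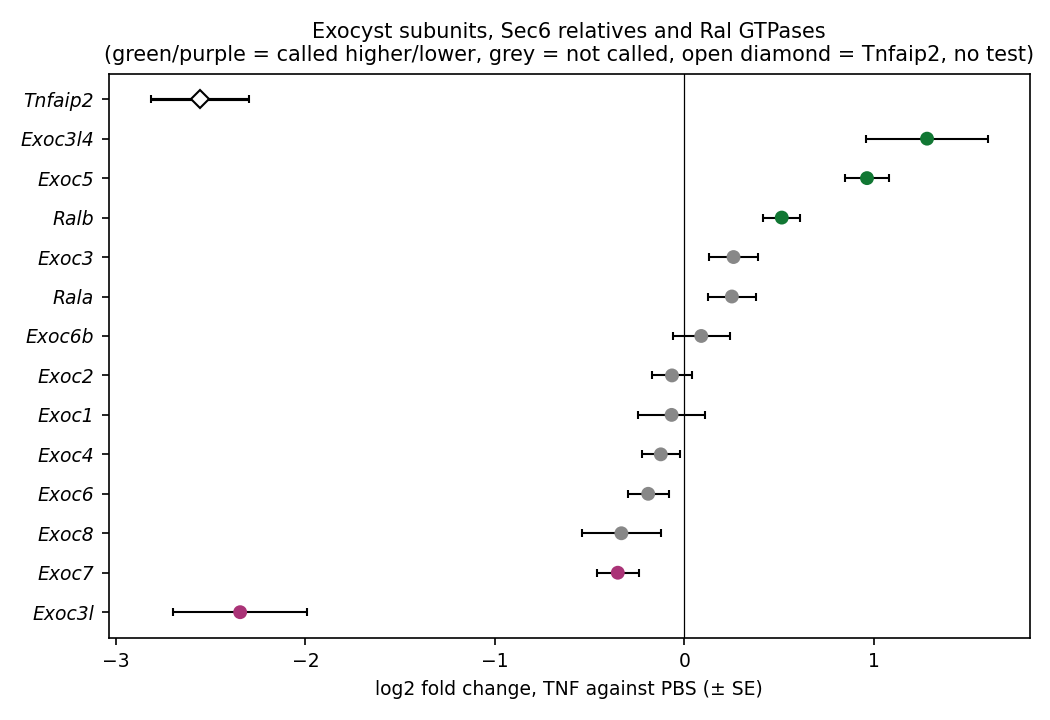
Log2 fold change of TNF against PBS with its SE (horizontal axis) for the 13 tested exocyst subunits, Sec6 relatives and Ral GTPases, and for Tnfaip2 as an open diamond with no test. Most subunits lie near 0, Exoc3l (-2.34) lies near Tnfaip2 (-2.56), and the neighbour Exoc3l4 (1.28) lies on the other side.

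Beside Tnfaip1, the list of its paralogs, Cullin-3 and known partners had 8 genes, all tested, of which 2 were higher and none lower, near the 23.3% of all tested genes called higher, with a median log2 fold change of 0.28. Kctd10, a paralog of Tnfaip1 with the same BTB fold, rose from 18.6 ± 1.81 to 51.2 ± 5.84 normalised CPM (SD, n = 4 each), a log2 fold change of 1.46 with an adjusted p of 7.20e-06 in edgeR. The GTPase Rhob rose by 0.68. The other paralog, Kctd13, stood at 1.55 and 1.69 normalised CPM with a log2 fold change of 0.13, Cul3 at 0.07, and the substrate Rhoa at 0.27, none of them called. Pold2 was called lower with the replicate number as a block (log2 fold change -0.50, adjusted p of 0.0463 in edgeR) and without PBS replicate 4 (-0.63, 0.0451). Pcna was called higher without TNF replicate 3 (0.59, 0.0422 in edgeR). By library size alone Kctd10 alone was still called.

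Of 16 genes for phosphoinositide enzymes and known partners of the TIPE proteins, all were tested, with 7 higher, 3 lower and 6 not called, where 23.3% of all tested genes were higher and 19.6% lower, and their median log2 fold change was 0.48. The regulatory subunits of PI3-kinase fell: Pik3r1 by 1.45 and Pik3r2 by 1.84 on the log2 scale, with adjusted p of 1.53e-05 and 5.46e-06 in edgeR. Their catalytic partners Pik3ca (log2 fold change -0.13) and Pik3cb (0.26) were not called, though Pik3cb was at 0.41 without TNF replicate 4, with an adjusted p of 0.0206 in edgeR. A further catalytic subunit, Pik3cd, was not on the list and is named after its values were seen. It stood at 0.141 normalised CPM in PBS and 3.50 in TNF, having passed the filter on low counts through its TNF libraries. The kinases Akt1 (0.73) and Akt2 (1.05), the GTPases Rac1 (0.99) and Cdc42 (0.77), the G protein subunit Gnai3 (1.20) and the kinase Map3k7 (0.69) rose. Casp8, the initiator caspase below the TNF receptor, rose from 21.1 ± 0.768 to 76.4 ± 6.30 normalised CPM, a log2 fold change of 1.85. Fbxw5, a substrate adaptor known to bind TIPE1, fell by 0.48 on the log2 scale. The count of 10 called genes became 3 by library size alone (Pik3r1, Pik3r2 and Casp8).

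**Figure D5:**
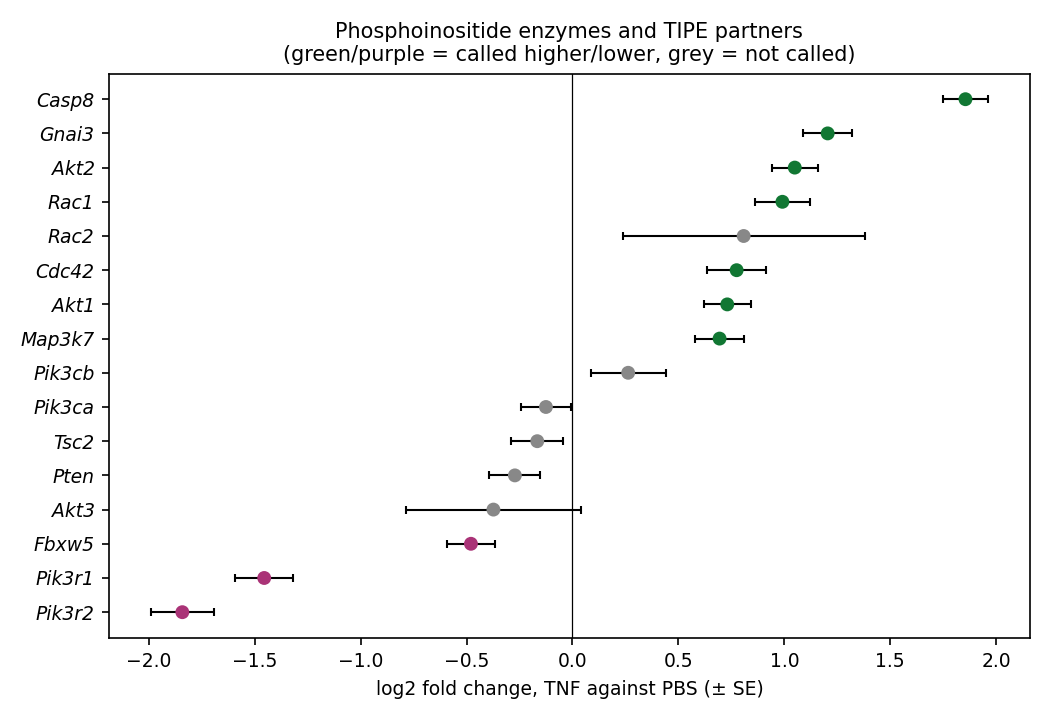
Log2 fold change of TNF against PBS with its SE (horizontal axis) for the 16 phosphoinositide enzymes and TIPE partners. Casp8 (1.85) is the highest, and Pik3r1 (-1.45) and Pik3r2 (-1.84) are the lowest. Genes in grey were not called.

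Genes tied to retinoic acid and to Klf5, both known as inputs to Tnfaip2 in other cells, did not move one way. Of 12 names 7 were tested, with 2 higher, 3 lower (23.3% and 19.6% over all tested genes) and a median log2 fold change of -0.51. The transcription factor Klf5 (1.15) and the transglutaminase Tgm2 (2.42) rose, Klf5 losing its call by library size alone (0.77, adjusted p of 0.107 in edgeR). Rarg, at -0.51 and not called, was called lower by library size alone (-1.01, adjusted p of 0.0298 in edgeR) and without TNF replicate 4 (-0.79, 0.0222). The retinoid receptors Rara (-0.53), Rxra (-0.78) and Rxrb (-0.73) fell, and Crabp2 and Cyp26b1 had no counts.

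The 5 genes most like Tnfaip2 over the 8 libraries, by Pearson's r of log2 normalised CPM among 8492 candidates, were Eepd1 (0.996), Nipal3 (0.995), Msh3 (0.993), Ankrd46 (0.992) and Adgre5 (0.992). All 5 stood lower after TNF, from a log2 fold change of -0.79 for Ankrd46 to -1.74 for Eepd1, each smaller in size than that of Tnfaip2. The 8 points of each correlation fall into the PBS and TNF groups and share their libraries and scaling, so the values are a description.

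The labelled cell type was checked on its markers, given as list sums in normalised CPM with TNF replicate 4 apart from the other 3 TNF libraries. The 7 Paneth markers, led by Lyz1 and Defa24, summed to 311085 to 459336 in PBS, to 388281 to 452815 in TNF replicates 1 to 3 and to 1209290 in TNF replicate 4. The TMM factor of 0.448 in TNF replicate 4 raised all its normalised values, so its sums are not shares of its counts. Of 8 M cell markers, a cell type known to express Tnfaip2, Gp2 had no count and Sox8 had 1. The M cell list summed to 275 to 302 in PBS, 598 to 636 in TNF replicates 1 to 3 and 1516 in TNF replicate 4, where Ccl9 made up most of it. Of its 6 tested genes 5 were higher (Ccl9, Ccl20, Tnfrsf11a, Anxa5 and Marcksl1), where 23.3% of all tested genes were higher. Spib was not called (log2 fold change 0.35, adjusted p of 0.495 in edgeR), and Ccl20 is also on the list of TNF-induced genes. Ccl9 lost its call when any PBS library was left out, at adjusted p of 0.0785 to 0.0897 in edgeR, and Ccl9 (0.2002) and Anxa5 (0.627) lost theirs by library size alone. Macrophage and monocyte markers summed to 9.64 to 13.7, 12.9 to 15.5 and 69.3 in the same order of libraries, and lymphocyte markers to 0.498 to 0.986, 0.808 to 1.25 and 4.12.

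Some epithelial markers were lower in TNF. Of 5 stem cell markers 4 were lower (Lgr5, Ascl2, Smoc2 and Axin2), against 19.6% of all tested genes. The list summed to 1455 to 2352 in PBS, 1313 to 1856 in TNF replicates 1 to 3 and 1748 in TNF replicate 4. Most of each sum was Olfm4 (1235 to 2096 in PBS, 1193 to 1717 in TNF), which was not called. Smoc2 lost its call by library size alone, at an adjusted p of 0.0629 in edgeR. The 7 enterocyte markers summed to 28.1 to 42.5 in PBS, 15.3 to 19.99 in TNF replicates 1 to 3 and 59.8 in TNF replicate 4. Apoa4, which passed the filter on low counts through its PBS libraries, was the 1 enterocyte marker called lower in the fit of all libraries under TMM. Lct was at the threshold in that fit (log2 fold change -2.57, adjusted p of 0.0501 in edgeR), and it too passed the filter through its PBS libraries. It was called lower under RLE scaling, library size alone, limma-voom or no filter, and without PBS replicate 1, PBS replicate 4 or TNF replicate 1. Sis was called lower by library size alone, by limma-voom and with no filter, at adjusted p of 0.0174, 0.0489 and 0.0491. Alpi, which also passed the filter on low counts through its PBS libraries, was called lower without TNF replicate 3 (0.0361 in edgeR). Without TNF replicate 4, Fabp2 (log2 fold change -0.89) and Sis (-0.92) were called lower, as were the goblet cell marker Agr2 (-1.28) and the tuft cell marker Avil (-1.001), with adjusted p of 0.000587, 0.00553, 4.14e-05 and 0.0325 in edgeR. The 6 goblet cell markers summed to 3591 to 5862 in PBS, 6275 to 7020 in TNF replicates 1 to 3 and 7544 in TNF replicate 4. Muc2 was higher (1.27, but 0.96 with an adjusted p of 0.0831 in edgeR by library size alone) and Fcgbp (-1.53) and Clca1 (-2.55) were lower. Clca1 stood at 554 normalised CPM in PBS replicate 1 and at 41.1 to 44.0 in the other PBS libraries, and omitting TNF replicate 1, 2 or 3 left it uncalled, at adjusted p of 0.0551 to 0.0651 in edgeR. The 4 tuft cell markers summed to 16.0 to 37.7, 10.2 to 19.6 and 64.5 in the order above, and none was called with all libraries. Enteroendocrine markers had sums of 10.3 to 13.2, 30.3 to 39.9 and 61.0, and 3 of 4 tested genes were called higher (Chga, Chgb and Gcg), against 23.3% of all tested genes. Omitting PBS replicate 1, 3 or 4, or TNF replicate 2 or 4, left Gcg uncalled, at adjusted p of 0.0620 to 0.0955 in edgeR, and library size alone did so too (0.2004). Vwf and Vim, the 1 tested gene each of the 6 endothelial and the 6 stroma markers, were called higher, Vwf losing its call by library size alone (0.112 in edgeR) and Vim passing the filter on low counts through its TNF libraries, while the 2 lists summed to 3.78 and 1.63 at most. The part of these cell types in the Tnfaip2 and Tnfaip8 values was not tested.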

How the data were processed

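RNA from sorted Paneth cells of mice given PBS (n = 4) or TNF (n = 4) was sequenced from stranded mRNA libraries. The deposited table, as made by the authors, holds raw counts per Ensembl gene for each library. The submitters' processing notes name FastQC 0.12, STAR 2.7.10a and DESeq2 with build mm39, and the counting program and its strand setting were not given in the sources used here. Of 55414 identifiers, 54749 matched GENCODE M39 (GRCm39) and 665 did not. Counts were filtered (filterByExpr), scaled by TMM and fitted over the whole table in edgeR 4.0.16 (R 4.3.3) with the quasi-likelihood test and Benjamini-Hochberg adjustment. Genes were called at an adjusted p under 0.05. No covariate was used. Alternatives were other scalings, filters and tests (DESeq2 1.42.0, limma 3.58.1), a replicate block, another transcript length and each library left out in turn. Levels per kb used the Ensembl canonical transcript. The fit was tested on simulated data. The members, the 5 pathway lists, the 11 marker lists and the tests were chosen with earlier results of these data known, so no list is independent support. Named were all members, every called gene of the exocyst, Cullin-3, phosphoinositide and retinoid lists, Tnfaip3, Tnfaip6 and the 3 TNF-induced genes with the smallest p, the 5 genes most like Tnfaip2 (mean of at least 5 normalised CPM), its neighbours, and marker genes at 0 or called in the lists cited, apart from an item not reported here. Other genes of the lists and those overlapping a member were named after their values were seen. Total counts per library, 23824717 to 32576077, set the precision, and intervals cover counting error only. Promoter motifs were searched in Python 3.11.15.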

Additional observations from a re-analysis of the deposited data

How the results depend on the processing

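Tnfaip8 and Tnfaip8l1 kept their direction and call under every scaling, filter, test and omitted library tried. Library size alone gave -2.93 for Tnfaip2, 0.67 for Tnfaip1 (no longer called) and 3182 genes called in all, with 1 gene called in the exocyst list, 1 in the Cullin-3 list and 3 in the phosphoinositide list. These came with a median over all genes shifted by -0.40, and the cause was not tested. Tnfaip8l3 was the least secure: -1.31 with no filter on low counts (not called, more genes being tested), and -1.49 to -1.06 over the 8 fits that each left out a library, 4 of which lost the call. It did not enter the fit with a minimum of 1 CPM in 4 libraries. The fit with the replicate number as a replicate block gave 1.02 for Tnfaip1, 2.68 for Tnfaip8, 1.78 for Tnfaip8l1 and -1.30 for Tnfaip8l3, all called, and 5087 genes called in all. It ended the calls of Exoc7, Ccl9, Gcg and Clca1, at adjusted p of 0.0563, 0.124, 0.128 and 0.193 in edgeR, and limma-voom those of Ccl9 (0.0685) and Clca1 (0.102). The replicate block also added calls in edgeR for Pold2 (lower, adjusted p of 0.0463) and the TNF-induced gene Sod2 (higher, 0.0405). Same-numbered libraries of the groups correlated at 0.03, 0.07, -0.15 and -0.13 in their deviations from the group means, so the numbers were not taken to pair the samples. Depth limits Tnfaip8l2, at 0 to 2 counts, and to a lesser degree Tnfaip8l3. TNF replicate 4 decided no call of a member under TMM scaling.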
